A study of Homo sapiens with 9 samples.

Results

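The genes described here are 10 imprinted genes, H19, IGF2, KCNQ1OT1, SNRPN, MEG3, DLK1, PEG3, PEG10, MEST and GNAS, picked by name among the 38690 protein-coding and lncRNA genes of GENCODE 44 placed on GRCh37, the same assembly as hg19. All 10 were found in the annotation, 3 of them as lncRNA genes (H19, KCNQ1OT1 and MEG3). The cells were mdig KO and WT BEAS-2B, a line of human bronchial epithelial cells, and the question was how 4 histone marks differed once mdig, the JmjC-domain protein encoded by RIOX2, was lost. Both genotypes came out of CRISPR-Cas9 transfection, blasticidin selection and the picking of colonies, and both were kept in blasticidin medium. KO cells had no mdig protein, while WT cells had been put through the same editing and still made it. How many colonies stood behind each library was not given in the sources used here. H3K4me3, H3K27me3, H3K9me3 and H3R8me2a (asymmetric dimethylation of arginine 8) were measured by ChIP-seq with 1 library per mark and genotype, so no difference below has a replicate check and no test was run.

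Imprinted genes are expressed mainly from the allele of 1 parent. The choice rests on control regions whose DNA is methylated on one parental allele, and at these regions the methylated allele normally carries H3K9me3, placed by SETDB1 that is brought in by the zinc finger proteins ZFP57 and ZNF445 through TRIM28, while the unmethylated allele carries H3K4me3. H19 and IGF2 share a control region upstream of H19, where CTCF binds the unmethylated maternal copy and keeps enhancers from IGF2. At KCNQ1OT1, SNRPN, PEG3, PEG10 and MEST the control region is the promoter itself, methylated on the maternal copy. MEG3 and DLK1 are set by a region between them that is methylated on the paternal copy, and GNAS has several promoters with opposite imprints.

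The files give islands, that is, stretches of enriched signal with a start and an end on a grid of 200 bp, and no height, depth or p-value. Each gene was read as the kilobases under islands over its body and 20 kb on both sides. A gene was called gained where KO had at least 2 times the WT length and at least 1 kb more, and lost where the opposite held. Over the whole genome KO islands covered 3.69 times the WT length for H3K9me3, 1.61 times for H3R8me2a, 1.33 times for H3K27me3 and 1.15 times for H3K4me3, and their part in the members' differences was not tested. H3K4me3 lay within 2 kb of the starts of the epithelial genes EPCAM, KRT8, KRT18 and CDH1 in both genotypes and not of KRT5, a basal cell keratin, nor of PTPRC or CD3E of leukocytes. It was also there at VIM and FN1, genes of mesenchymal cells. FOXJ1, a gene of ciliated cells, had 0 kb in KO against 2.88 kb in WT, and its H3K27me3 there was 0 kb in KO against 4.00 kb in WT. H3K27me3 also lay within 2 kb of the CDH1 start, over 4.00 kb in KO and 2.2 kb in WT. At KRT5 and CD3E it covered 4.00 kb in both genotypes. RIOX2 had H3K4me3 at its start in both (2.93 kb in KO, 2.73 kb in WT), and islands do not check a small edit in its coding sequence.

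Some of the sequences under these islands are printed first, those of H19, KCNQ1OT1 and MEST because H3K9me3 lay over them in KO alone and those of PEG3 because it lay over them in both genotypes. Matches to the CTCF core, a stretch of 14 letters repeated in the H19 control region, were searched on both strands of all 10 windows, and 5 were found, all at H19 and all on its strand. They lay 2.13, 2.94, 4.37, 4.77 and 5.18 kb upstream of the most used H19 start (2019072), inside the longer extent that GENCODE gives to H19, and 0 matches lay in the 20 kb upstream of that extent. Capitals mark the core, and 4 of the 5 cores were identical.
H19 CTCF core 1 (chr11:2024241-2024270, GRCh37, minus strand): agaagtggCCGCGCGGCGGCAGtgcaggct
H19 CTCF core 2 (chr11:2023836-2023865, GRCh37, minus strand): ggaagtggCCGCGCGGCGGCAGtgcaggct
H19 CTCF core 3 (chr11:2023435-2023464, GRCh37, minus strand): aaaagtggCCGCGCGGCGGCAGtgcaggct
H19 CTCF core 4 (chr11:2022002-2022031, GRCh37, minus strand): ggaagtggCCGCGTGGCGGCAGtgcaggct
H19 CTCF core 5 (chr11:2021190-2021219, GRCh37, minus strand): ggaagtggCCGCGCGGCGGCAGtgcaggct

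In PEG3 the YY1 core GCCATNTT, searched on both strands, occurs as a ladder just inside the gene. The 6 matches below are those with a neighbour at 138 bp, the most common spacing among the 17 matches on the gene's strand, with the core in capitals. Such a match is a description of the letters and not evidence that YY1 binds.
PEG3 YY1 core 1 (chr19:57351166-57351189, GRCh37, minus strand): cactgggtGCCATCTTttatgagg
PEG3 YY1 core 2 (chr19:57351028-57351051, GRCh37, minus strand): cattgggtGCCATCTTttatgagg
PEG3 YY1 core 3 (chr19:57350902-57350925, GRCh37, minus strand): gctttgacGCCATGTTtgatgggg
PEG3 YY1 core 4 (chr19:57350764-57350787, GRCh37, minus strand): gcttggacGCCATGTTtgatgggg
PEG3 YY1 core 5 (chr19:57350626-57350649, GRCh37, minus strand): acctagatGCCATGTTtgatgggg
PEG3 YY1 core 6 (chr19:57350488-57350511, GRCh37, minus strand): acctgggcGCCATCTTtaatgaaa

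KCNQ1OT1 and MEST have dense runs of the hexamer TGCCGC, which ZFP57 reads in methylated DNA, next to a start that was under H3K9me3 in KO. Capitals mark the hexamer on either strand, so that one on the other strand reads GCGGCA. The stretches are shown in the direction of transcription, with 3 hexamers at KCNQ1OT1 and 4 at MEST.
KCNQ1OT1 (chr11:2720690-2720762, GRCh37, minus strand): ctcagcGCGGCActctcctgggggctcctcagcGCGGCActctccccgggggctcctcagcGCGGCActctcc
MEST (chr7:130131920-130131998, GRCh37, plus strand): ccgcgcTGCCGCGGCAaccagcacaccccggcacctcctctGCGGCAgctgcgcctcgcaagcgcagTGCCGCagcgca

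H3K9me3 was the mark in which the 10 genes differed most between the genotypes. In the summed windows of 926 kb it covered 216 kb in KO against 70.0 kb in WT, and 9 of the 10 genes had more in KO. By the rule 8 of 10 were called gained (H19, IGF2, MEG3, DLK1, PEG3, PEG10, MEST and GNAS), where 40.8% of all genes were. SNRPN was the 1 gene called lost, where 1.27% of all genes were, and KCNQ1OT1 met neither rule. The median difference, KO minus WT, was 16.9 kb over the 10 genes and 0 kb over all genes. The members' windows as a whole had a KO over WT ratio of 3.08, lower than the 3.69 of the genome. Over whole chromosomes the H3K9me3 ratio was 6.71 on chromosome 11 (H19, IGF2, KCNQ1OT1), 6.55 on 20 (GNAS) and 4.18 on 7 (PEG10, MEST). It was 4.09 on chromosome 14 (MEG3, DLK1), 2.62 on 15 (SNRPN) and 2.54 on 19 (PEG3). The part of these chromosome ratios in the calls was not tested. When the H3K9me3 islands of both genotypes were brought to an equal summed length, 4 of the 10 genes were called gained (21% of all genes) and 2 lost (9.87%).

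The other marks differed at fewer of the 10 genes. H3R8me2a was called gained at 2 genes, H19 and IGF2 (19.2% of all genes), and lost at 0 (7.6%). H3K4me3 had 0 genes gained (4.37% of all genes) and 0 lost (2.09%), and the same held for H3K27me3, with 0 gained (9.69%) and 0 lost (4.33%). The median KO minus WT difference of each of these 3 marks was 0 kb over the members and over all genes. Summed lengths were 41.2 kb in KO and 37.6 kb in WT for H3K4me3, and 416 kb in KO and 375 kb in WT for H3K27me3. For H3R8me2a they were 33.4 kb in KO and 11.6 kb in WT, a ratio of 2.88 beside 1.61 over the genome. All of this H3R8me2a lay at H19, IGF2 and KCNQ1OT1 on chromosome 11, and that whole chromosome had a ratio of 2.99. H3K27me3 was thus the most extensive of the 4 marks over these genes, on 44.9% of the windows in KO and 40.5% in WT.

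**Figure D1:**
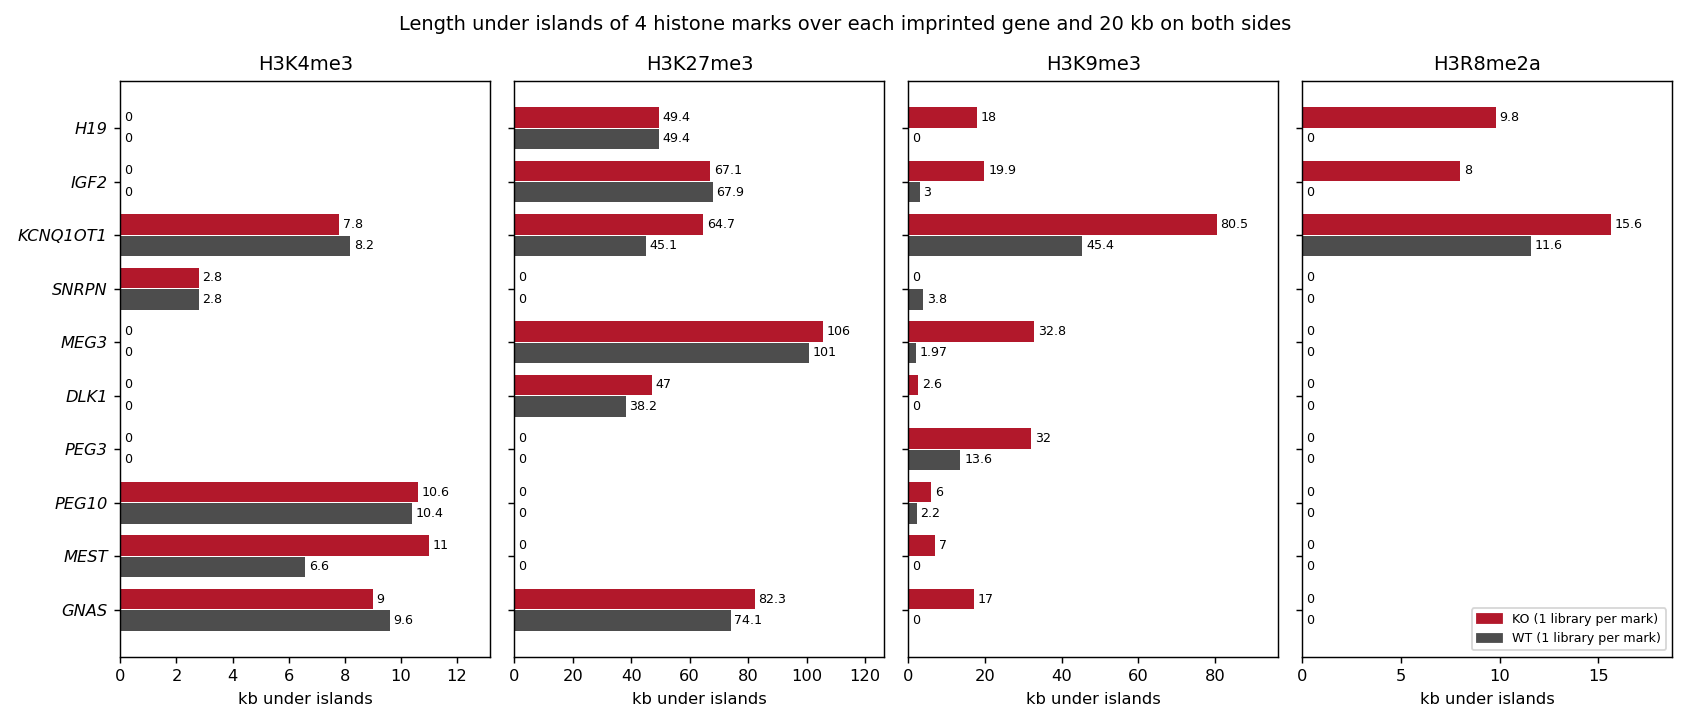
Kilobases under islands (x axis) of each of the 4 marks over each gene with 20 kb on both sides, KO bars above WT bars, 1 library each and so no error bars. H3K9me3 bars are longer in KO for 9 of the 10 genes and longer in WT for SNRPN, while H3K27me3 was found at 6 genes and H3K4me3 at 5 in both genotypes.

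The genes fell into groups by the marks that both genotypes shared. H19, IGF2, MEG3 and DLK1 had H3K27me3 over most of their windows and no H3K4me3. KCNQ1OT1 and GNAS had both. SNRPN, PEG10 and MEST had H3K4me3 and no H3K27me3, and PEG3 had islands of H3K9me3 alone. In KO, H3K27me3 covered 100% of the H19 window and 100% of the H3K9me3 length in it. The same shares were 96.8% of the window and 96% of the H3K9me3 length at IGF2, 86.8% and 78.6% at MEG3, and 45.3% and 52.3% at KCNQ1OT1. At DLK1 H3K27me3 covered 89.4% of the window and at GNAS 73.8%, with 100% of the H3K9me3 length in both. At H19, IGF2 and MEG3 the share of H3K9me3 inside H3K27me3 was thus no higher than the share of the window. At H19 this was forced, since H3K27me3 covered the whole window. At KCNQ1OT1, DLK1 and GNAS the share of H3K9me3 inside H3K27me3 was higher than the share of the window.

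**Figure D2:**
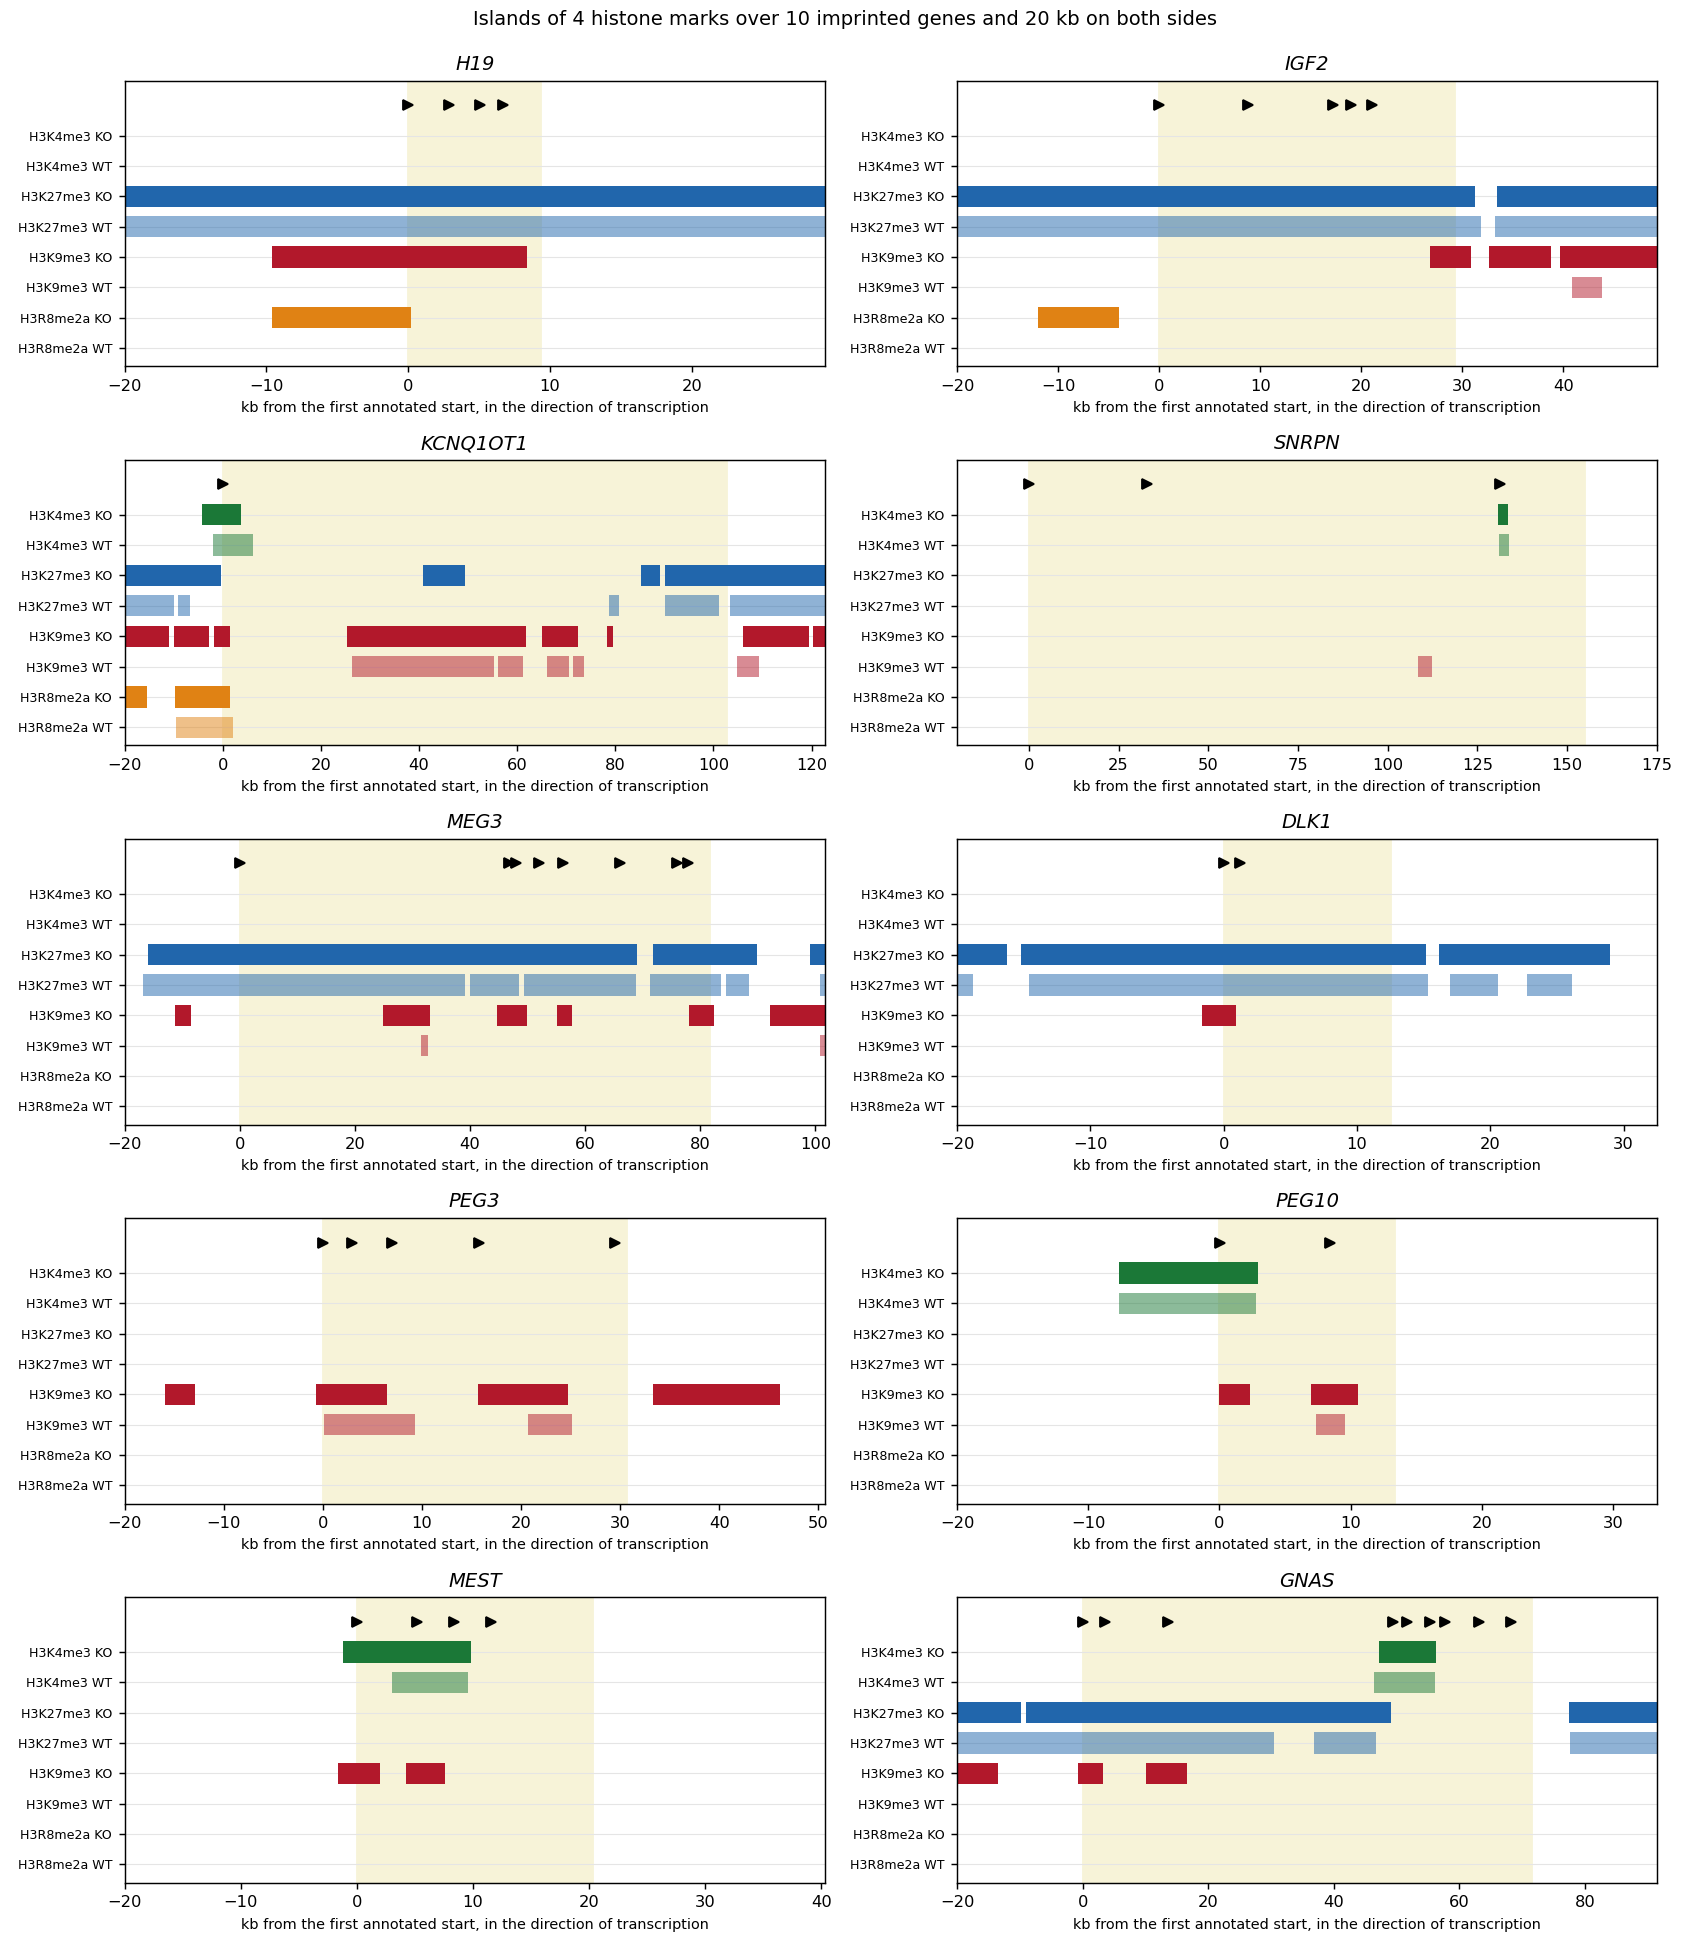
Islands of the 8 libraries (rows, KO above WT for each mark) along each gene (shaded) and 20 kb on both sides, in kb from the first annotated start and in the direction of transcription, with arrowheads at the starts. At H19 the KO H3K9me3 island of 18 kb has no WT counterpart, and at SNRPN the single H3K9me3 island is in WT.

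H19 is a maternally expressed lncRNA that is abundant in the fetus and silent in most adult cells. Over H19 (chr11:2016396-2025782, minus strand, ENSG00000130600.22_13) H3K9me3 covered 18 kb in KO against 0 kb in WT, as 1 island (chr11:2017401-2035400). That island spanned all 4 annotated groups of starts and all 5 CTCF cores printed above. H3R8me2a covered 9.8 kb in KO against 0 kb in WT, as 1 island (chr11:2025601-2035400) that ended at the same edge upstream and stopped before the CTCF cores, 6.53 kb upstream of the most used start. H3K27me3 covered the whole window in both genotypes, 49.4 kb each, so the CTCF cores lay under H3K27me3 in both and under H3K9me3 in KO alone. No H3K4me3 island was found in either. Of 33 TGCCGC hexamers in the window 18 lay in the KO H3K9me3 island, and 5 of these are part of the CTCF cores and not separate matches.

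IGF2, the paternally expressed insulin-like growth factor (chr11:2150342-2179621, minus strand, ENSG00000167244.22_18), had 19.9 kb of H3K9me3 in KO against 3 kb in WT. The 3 KO islands in its window (chr11:2122001-2140000, chr11:2140801-2147000 and chr11:2148801-2152800) lay over the end of the gene and downstream of it, and the WT island (chr11:2135801-2138800) fell inside the first of these. With scaled libraries the difference was 2.38 kb and IGF2 was not called. The nearest KO island lay 5.74 kb downstream of the closest of the 5 start groups, so none of the IGF2 promoters was under H3K9me3 in either genotype. H3R8me2a covered 8 kb in KO against 0 kb in WT, as an island beginning 3.98 kb upstream of the first start (chr11:2183601-2191600). That island overlaps the neighbouring gene TH. The same 8 kb was called gained at TH and INS, so it counts again in the wider list below. With gene bodies alone the H3R8me2a calls at H19 and IGF2 were not made, since the IGF2 island lies upstream and the H19 island has 0.18 kb within the gene, over its first start. H3K27me3 covered 67.1 kb in KO and 67.9 kb in WT, including every start. The H19 and IGF2 genes are 125 kb apart and their windows share no base.

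**Figure D3:**
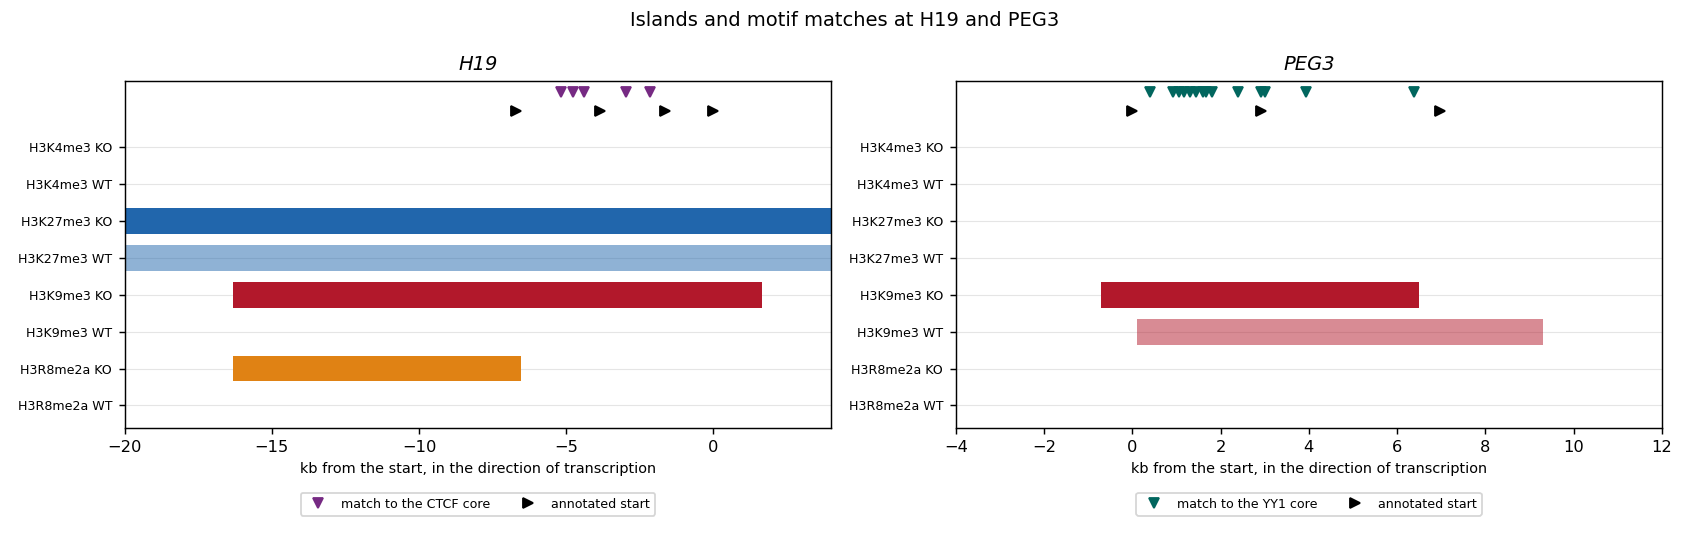
Islands of the 8 libraries (rows, KO above WT) around the most used start of H19 and of PEG3, in kb from that start in the direction of transcription, with triangles at matches to the CTCF core in H19 and the YY1 core in PEG3. The 5 CTCF matches lie within the KO H3K9me3 island, where WT has none, while the YY1 matches lie under H3K9me3 in both genotypes.

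KCNQ1OT1 is a paternally expressed antisense lncRNA that starts inside an intron of the potassium channel gene KCNQ1 and silences neighbours such as CDKN1C. At its single group of starts (2721224, chr11, minus strand, ENSG00000269821.2_9) H3K4me3 was present in both genotypes, over 7.8 kb in KO (chr11:2717601-2725400) and 8.2 kb in WT (chr11:2715001-2723200). An H3K9me3 island of 3.2 kb lay over the same start in KO (chr11:2719801-2723000) and none in WT. H3K4me3 and H3K9me3 thus shared 4.6 kb of the window in KO against 0 kb in WT. An H3K27me3 island of 30 kb came to within 0.38 kb upstream of the start in KO (chr11:2721601-2751600), and the nearest one lay 6.78 kb upstream in WT. The start was under H3R8me2a in both, with islands of 11.2 kb in KO and 11.6 kb in WT.

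Over the whole KCNQ1OT1 window H3K9me3 covered 80.5 kb in KO against 45.4 kb in WT, a ratio of 1.77 that misses the rule for a gain. With a factor of 1.5 or 50 kb of flank it was called gained, and with scaled libraries it was called lost. The WT islands lay mostly in the middle of the transcribed stretch, and 43 kb of their length were also covered in KO. This shared block held few CpG sites, with 8.2 per kb in the longest WT island. The KO island over the start held 64.7 CpG per kb and 6 TGCCGC hexamers. The 3 hexamers printed above lie inside it, downstream of the start.

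SNRPN (chr15:25068784-25223870, plus strand, ENSG00000128739.23_11), paternally expressed and coding for a protein of the spliceosome, was the gene that went the other way. Its promoter at 25200082, the start region used as the imprinting centre of the Prader-Willi domain, had H3K4me3 over 2.8 kb in KO (chr15:25199601-25202400) and 2.8 kb in WT (chr15:25199801-25202600). No H3K9me3 lay within 2 kb of any SNRPN start in either genotype. The lost call came from 1 WT island of 3.8 kb inside the gene (chr15:25177201-25181000) that had no KO counterpart. With a least difference of 5 kb the call was not made. H3K27me3 and H3R8me2a islands were found in neither genotype.

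MEG3 is a maternally expressed lncRNA, and DLK1, its paternally expressed neighbour, codes for a Notch-like membrane protein. MEG3 (chr14:101245747-101327368, plus strand, ENSG00000214548.18_11) had 32.8 kb of H3K9me3 in KO against 1.97 kb in WT. The start group used by 27 of its 50 transcripts (101292455) was under a KO island of 5.2 kb (chr14:101290401-101295600) and under none in WT. Upstream of this start, a KO island of 8.2 kb (chr14:101270601-101278800) contained the WT island of 1.2 kb (chr14:101277201-101278400), and their edges lay 13.65 kb and 14.05 kb from the start. H3K9me3 was also found in both genotypes beyond the 3′ end of the gene, in KO as chr14:101337801-101351400 and in WT as chr14:101346601-101350800. H3K27me3 covered 106 kb in KO and 101 kb in WT, and no H3K4me3 or H3R8me2a island was found.

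DLK1 (chr14:101192042-101204561, plus strand, ENSG00000185559.16_9) had 2.6 kb of H3K9me3 in KO against 0 kb in WT. It was 1 island (chr14:101190401-101193000) over the first start, ending 0.23 kb before the second one, which is the canonical start. The DLK1 gain is the smallest of the 8 and was not called with the gene body alone, with a least difference of 5 kb or with scaled libraries. H3K27me3 covered 47.0 kb in KO and 38.2 kb in WT.

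PEG3 (chr19:57321445-57352096, minus strand, ENSG00000198300.14_16), a paternally expressed zinc finger gene, carried H3K9me3 at its promoter in WT already. Over the window KO had 32 kb against 13.6 kb in WT. The island at the promoter was present in both genotypes and shorter in KO, with 7.2 kb (chr19:57345601-57352800) against 9.2 kb in WT (chr19:57342801-57352000). It reached 0.71 kb upstream of the most used start in KO and stopped 0.09 kb inside the gene in WT. All 14 YY1 cores in the KO island were also in the WT island, and both islands held 11 TGCCGC hexamers. The KO excess came from elsewhere, namely an island of 12.8 kb downstream of the gene (chr19:57306001-57318800), one of 9 kb within it (chr19:57327401-57336400, against 4.4 kb in WT) and one of 3 kb upstream (chr19:57365001-57368000). With gene body alone, with 5 kb of flank or with scaled libraries PEG3 was not called, and after scaling it had less in KO.

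PEG10 (chr7:94285637-94299007, plus strand, ENSG00000242265.6_14), a paternally expressed gene derived from a retrotransposon and needed in the placenta, had H3K4me3 over its promoter in both genotypes, 10.6 kb in KO and 10.4 kb in WT. An H3K9me3 island of 2.4 kb (chr7:94285601-94288000) lay over its most used start (94285682) in KO and none in WT, wholly within the H3K4me3 island. A further island within the gene was in both, with 3.6 kb in KO and 2.2 kb in WT. In sum H3K9me3 covered 6 kb in KO against 2.2 kb in WT, which was not called with a least difference of 5 kb, and after scaling the libraries the difference turned to less in KO. The promoter island was CpG-rich, at 47.9 per kb, and held 0 TGCCGC hexamers.

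MEST (chr7:130126012-130146306, plus strand, ENSG00000106484.16_14), a paternally expressed gene of the alpha/beta hydrolase fold family, had 7 kb of H3K9me3 in KO against 0 kb in WT. The 2 KO islands covered its first start (chr7:130124401-130128000) and its second start (chr7:130130201-130133600). H3K4me3 covered 11 kb in KO (chr7:130124801-130135800) against 6.6 kb in WT (chr7:130129001-130135600), so in KO alone it extended over the first start at 130126012. This H3K4me3 difference missed the rule of 2 times and was called with a factor of 1.5. The 2 marks shared 6.6 kb in KO against 0 kb in WT. The second KO island held 62.9 CpG per kb and 8 TGCCGC hexamers, among them the 4 printed above.

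GNAS (chr20:57414773-57486247, plus strand, ENSG00000087460.29_18) codes for the stimulatory G protein alpha subunit and, from promoters upstream of it, for the NESP55 and XLas products. H3K9me3 covered 17.0 kb of the window in KO against 0 kb in WT. The KO islands lay over the start at 57414803, that of NESP55 (chr20:57414001-57418000), and over the start at 57428318, that of XLas (chr20:57424801-57431400), with another upstream of the gene (chr20:57383201-57401200). These promoters had no H3K4me3 in either genotype and were under H3K27me3 in both. The promoters farther along, at 57464215 and 57466476, had H3K4me3 over 9 kb in KO and 9.6 kb in WT and no H3K9me3. The XLas island held 55.2 CpG per kb and 10 TGCCGC hexamers, though only 1 of these was within 1 kb of the start.

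**Figure D4:**
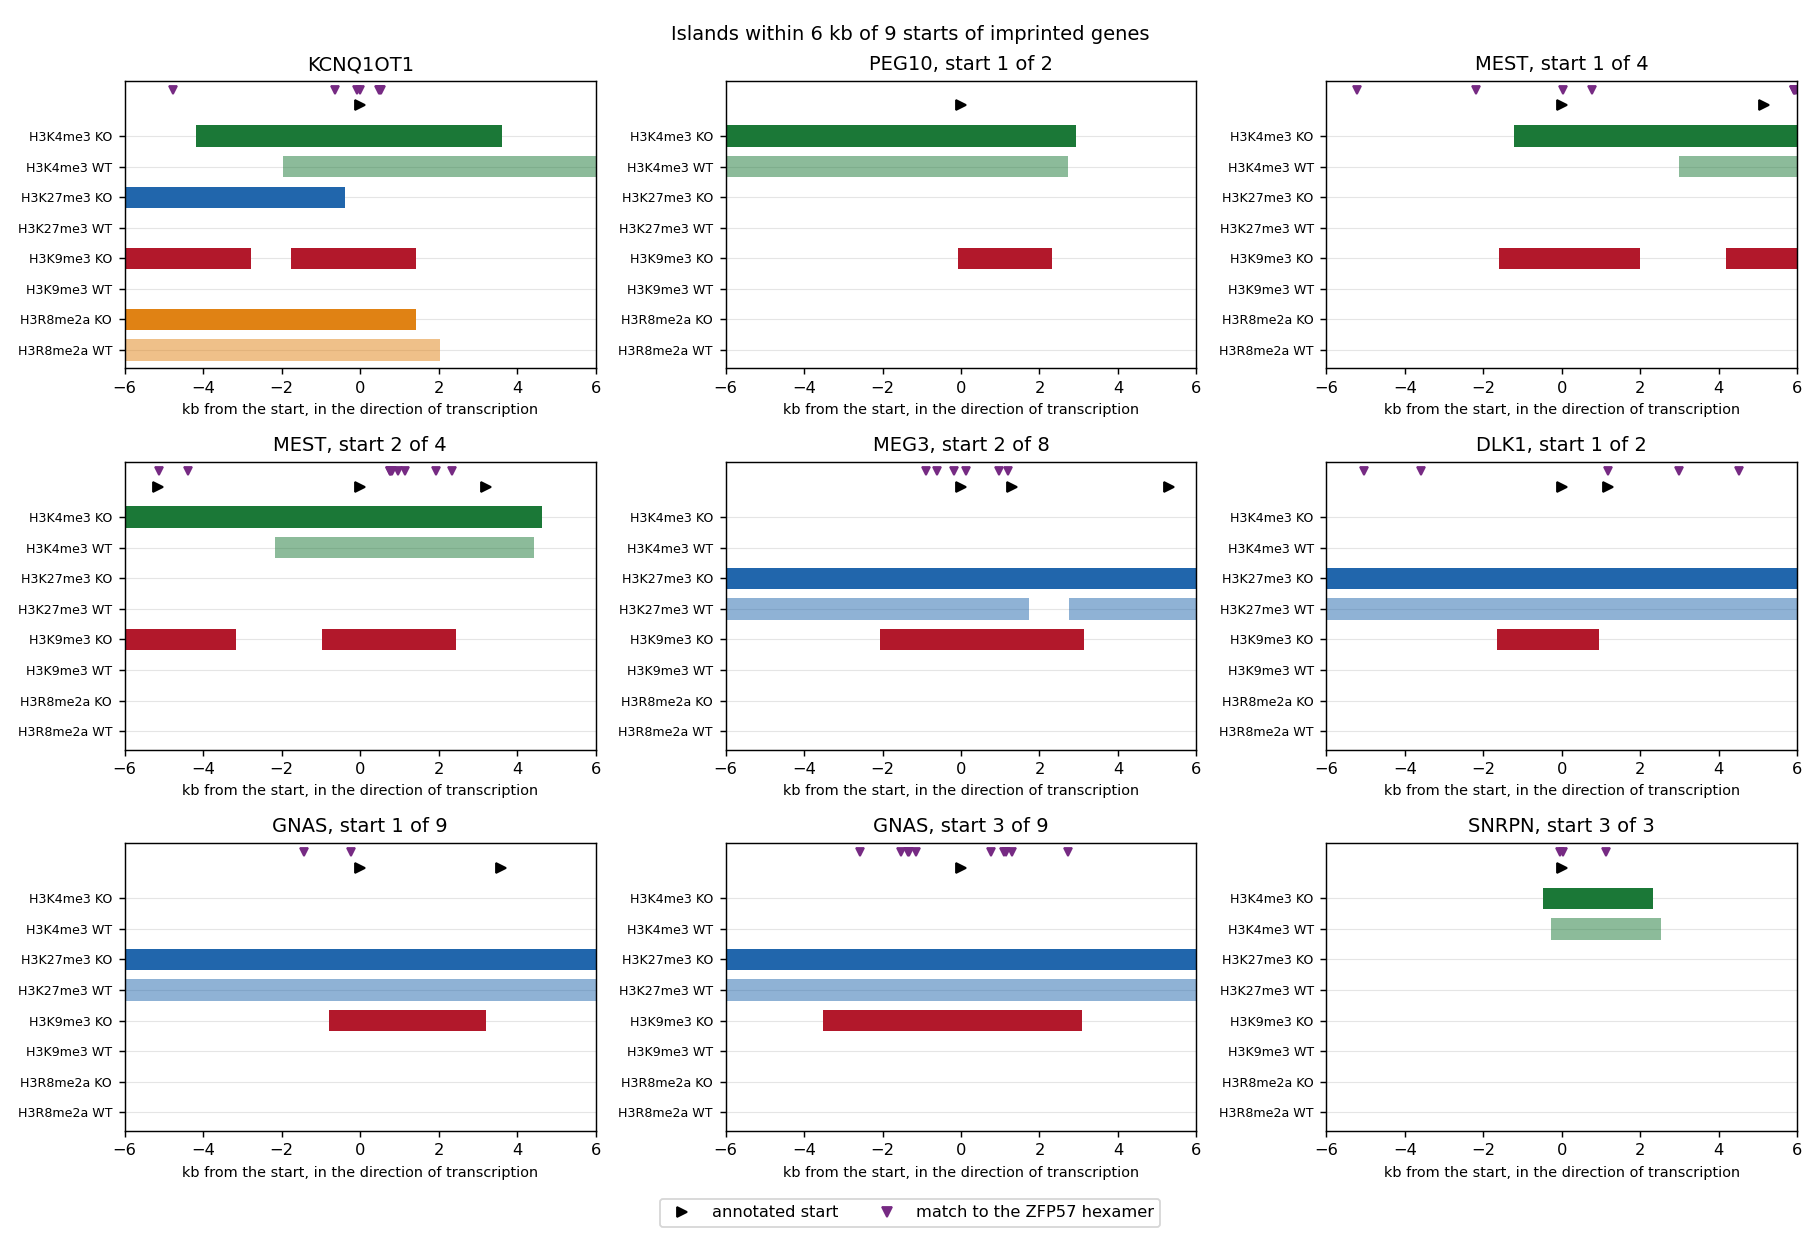
Islands of the 8 libraries (rows, KO above WT) within 6 kb of 9 starts, in kb from the start in the direction of transcription, with arrowheads at annotated starts and triangles at matches to the ZFP57 hexamer. KO H3K9me3 lies over 8 of these starts and over none of them in WT, and at KCNQ1OT1, PEG10 and MEST it overlaps H3K4me3. The starts were picked for KO H3K9me3, with SNRPN added, so these counts follow from the choice. Starts under H3K9me3 in WT, at PEG3 and at the second PEG10 start, are not among those shown.

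Read by start sites, 18 of the 43 start groups of the 10 genes were under an H3K9me3 island in KO and 3 in WT. These belonged to 8 genes in KO and to 2 in WT, PEG3 and PEG10. Start groups can share an island, as all those of H19 did in KO, so they are not separate events. A gene with many start groups also has more chances to be counted. The share of all genes with any start under an island was not computed. By canonical starts, 5 of 10 members were under H3K9me3 in KO, H19, KCNQ1OT1, PEG3, PEG10 and MEST (8.79% of all genes), and 0 in WT (1.79% of all genes). At PEG3 the WT island stopped 0.09 kb from that start, less than the 200 bp grid, and covered 1.91 kb within 2 kb of it. H3K4me3 covered the canonical starts of KCNQ1OT1, SNRPN, PEG10, MEST and GNAS in both genotypes, 5 of 10 beside 46% of all genes in KO and 45.9% in WT.

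H3K4me3 and H3K9me3 together within 2 kb of 1 start were found at 3 members in KO, KCNQ1OT1, PEG10 and MEST, and at 0 members in WT. Among all genes 3.52% had both marks near the canonical start in KO and 1.22% in WT. Of all starts with H3K4me3, 7.32% also had H3K9me3 in KO and 2.53% in WT. The counts were 3 in KO and 0 in WT also within 1 kb and within 5 kb of a start, distances chosen after the data were seen. Islands carry no information on alleles, so marks on opposite parental copies, on 1 copy, or in different cells cannot be told apart.

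The KO islands over members' starts varied in CpG density. Those over the KCNQ1OT1 start, the second MEST start, both GNAS starts, the MEG3 start and the PEG10 start held from 47.9 to 64.7 CpG per kb. The median was 12.4 over all KO H3K9me3 islands, with a 95th percentile of 36.7, and 20.6 over the 2812 KO islands that cover a canonical start. The islands over the DLK1 start (27.7), the first MEST start (28.6), the second PEG10 start (29.7), the MEG3 start at 101301863 (30.4), the first PEG3 start (34.6) and the H19 starts (36.6) were lower. The PEG3 start at 57336374 lay in an island with 13.2 CpG per kb, close to the median of all KO islands.

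Hexamers were counted within 1 kb of each start, where 46.1% of all genes have at least 1. KCNQ1OT1 and the first PEG3 start had 6, a number reached by 0.801% of genes. The second MEST start, the main MEG3 start and the second H19 start had 5, reached by 1.81% of genes, with 3 CTCF cores in the same H19 stretch. These shares take 1 start per gene, while members have up to 9 start groups, and at their canonical starts H19 had 1 hexamer and MEG3 had 2. SNRPN had 2 at its promoter and PEG10 had 0. The YY1 core was within 1 kb of the start in 29.9% of all genes, and the CTCF core in 0.0362%.

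A wider list of 49 imprinted genes, most of them neighbours of the 10, was read in the same way. H3K9me3 was called gained at 36, where 40.8% of all genes were, and lost at 1, where 1.27% were, with a median KO minus WT difference of 8 kb. The windows of 12 listed genes meet a member's window, and of the other 37 genes 27 were called gained and 1 lost, with a median of 7.8 kb. KCNQ1, the channel gene that contains KCNQ1OT1, had 267 kb in KO against 66.6 kb in WT. GRB10, an adaptor that dampens insulin signalling, had 83.2 kb in KO against 16.8 kb in WT, and ZNF331, a zinc finger gene, had 64.5 kb in KO against 16.8 kb in WT.

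The 3 listed genes with less H3K9me3 in KO were all of the SNRPN domain on chromosome 15. The windows of SNHG14 and UBE3A overlap, so bases in the overlap count for both, and the SNHG14 window also meets that of SNRPN. The host transcript SNHG14 had 133 kb in KO against 143 kb in WT. UBE3A, the ubiquitin ligase of Angelman syndrome, had 2.2 kb in KO against 8.8 kb in WT and was the 1 gene called lost. MKRN3, a ring finger gene, had 4.4 kb in KO against 7 kb in WT. The domain was not uniform, since ATP10A, a lipid flippase gene, had 34.0 kb in KO against 19.2 kb in WT. Over all of chromosome 15 the KO islands covered 2.62 times the WT length.

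**Figure D5:**
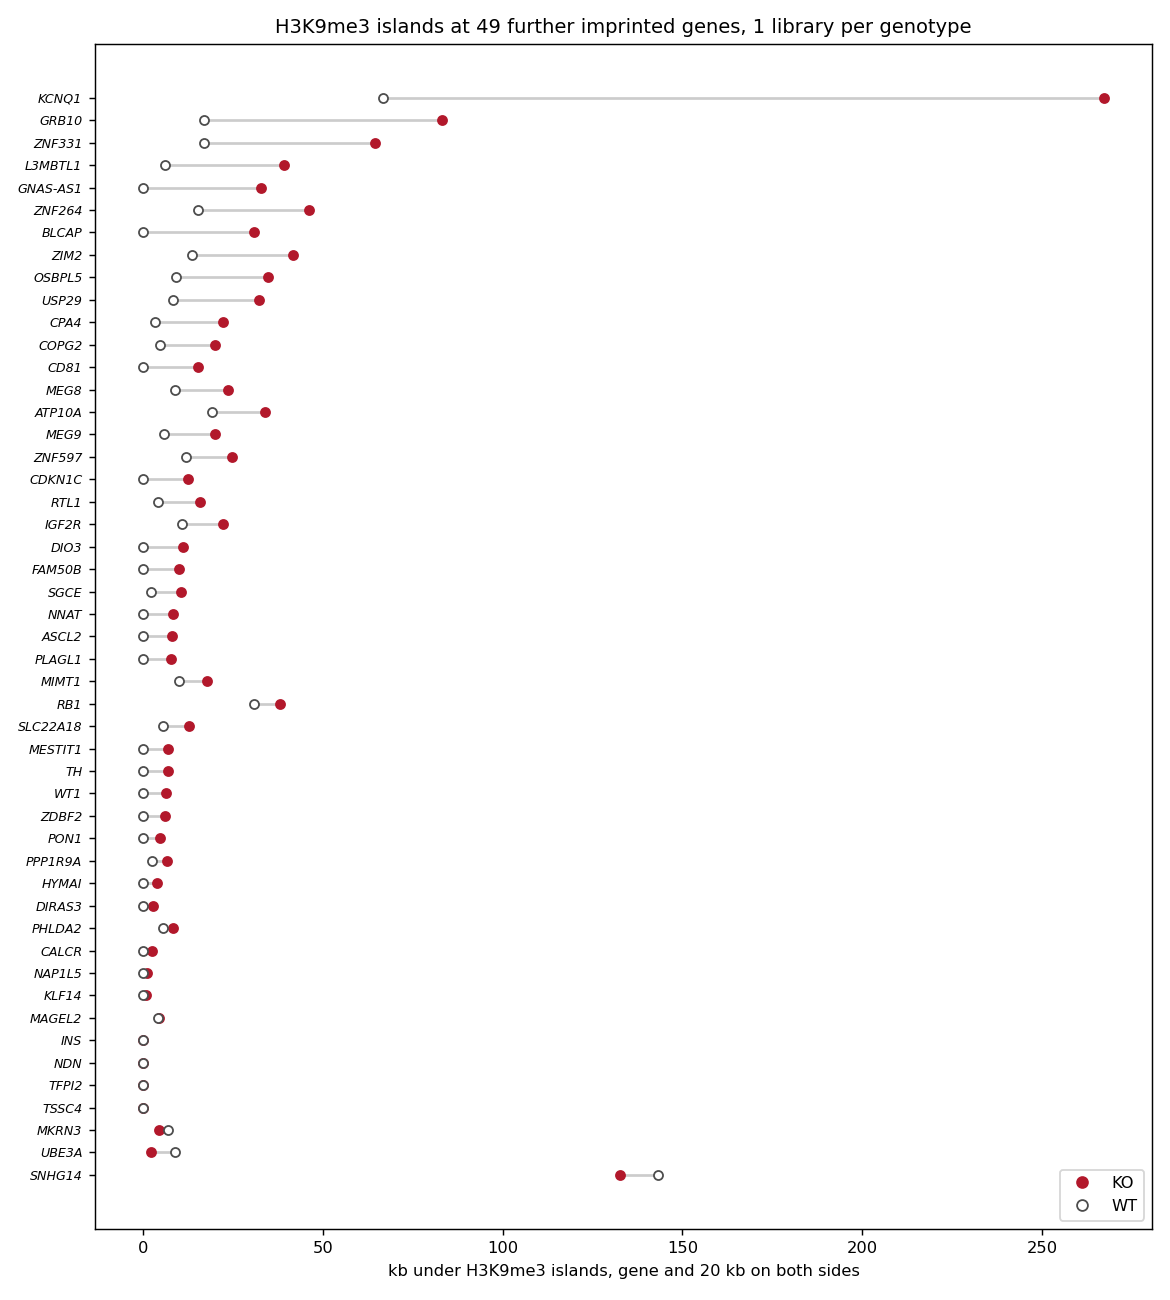
Kilobases under H3K9me3 islands (x axis) at 49 further imprinted genes with 20 kb on both sides, filled points for KO and open points for WT, 1 library each, ordered by KO minus WT. The KO point lies to the right at 42 genes and to the left at 3, MKRN3, UBE3A and SNHG14.

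In the other marks the wider list had fewer calls. H3K27me3 was called gained at 6 of 49 (9.69% of all genes) and lost at 1 (4.33%), KLF14, a transcription factor gene with 0 kb in KO against 17.2 kb in WT. The largest H3K27me3 differences were at KCNQ1, with 296 kb in KO against 257 kb in WT, ATP10A, with 121 kb in KO against 84.4 kb in WT, and CALCR, the calcitonin receptor gene, with 38.6 kb in KO against 9.8 kb in WT. Of these CALCR alone was called. H3K4me3 was called gained at 2 of 49 (4.37% of all genes) and lost at 0 (2.09%), and the largest differences, at L3MBTL1 with 19.2 kb in KO against 11.6 kb in WT and at TSSC4 with 16.7 kb in KO against 24.7 kb in WT, did not meet the rule.

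H3R8me2a was called gained at 8 of 49 genes, where 19.2% of all genes were, and lost at 2, where 7.6% were, so neither share of the list was above that of all genes. KCNQ1 had 87.8 kb in KO against 39 kb in WT. L3MBTL1, a reader of methylated histones, had 39.2 kb in KO against 0 kb in WT, and BLCAP had 32.4 kb in KO against 13.2 kb in WT. The 2 lost were GRB10, with 0 kb in KO against 5.8 kb in WT, and IGF2R, the receptor that clears IGF2, with 0 kb in KO against 10.2 kb in WT. GRB10 therefore had more H3K9me3 and less H3R8me2a in KO.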

How the data were processed

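BEAS-2B cells, mdig KO and WT, were profiled by ChIP-seq for 4 marks with 1 library each, and 1 input of WT made up the 9 samples. The authors aligned reads of 75 nt to hg19 with BWA, extended them to 200 bp, reduced each library to the tag number of the smallest and called islands per library. The submitters' processing notes name BWA, without a version, and SICER 1.1. The deposited values are start and end positions of 141489 islands in 8 sets, with no height or count, so the depth behind each island is unknown, and wider enrichment and looser calling cannot be told apart. A set of merged regions and the input were not used here.

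Island positions were placed on GENCODE 44 genes (20098 protein-coding and 18592 lncRNA) with Python 3.11.15 and numpy 2.4.6, and lengths were recounted with bedtools 2.31.1, with 80 of 80 values equal. Starts within 1 kb were joined into groups. Motifs were searched in GRCh37 on both strands over each member's whole window. Counts per start, and the shares of all genes, were taken within 1 kb of starts. The code for lengths, gain calls and hexamer matches was checked on simulated data with known answers. That check does not show how the rule behaves on real islands. Named were the 10 members, RIOX2 and, from the wider list, the 3 genes with the largest and the 3 with the smallest difference per mark. TH and INS were named after their values were seen, for the H3R8me2a island shared with the IGF2 window. The members and lists were chosen with earlier results of these data known. Alternatives were a factor of 1.5, other flanks (0, 5 and 50 kb), islands of at least 1 kb, islands joined within 1 kb, scaled libraries and a least difference of 5 kb. Figures were drawn with matplotlib 3.10.9. One marker gene is not reported here.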

Additional observations from a re-analysis of the deposited data

How the results depend on the processing

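The H3K9me3 calls depended most on the total length of the libraries. With both scaled to the same length, 4 members were called gained (H19, MEG3, MEST and GNAS) and 2 lost (KCNQ1OT1 and SNRPN), and KO minus WT became -0.58 kb at PEG10 and -4.94 kb at PEG3. A least difference of 5 kb left 0 members with H3K9me3 lost, where 0.271% of all genes were. A factor of 1.5 gave 1 member with H3K4me3 gained, MEST, where 10.8% of all genes were. Gene bodies alone left 0 members with H3R8me2a gained (13.3% of all genes). With 50 kb on both sides 1 member had H3R8me2a lost, DLK1 (8.84% of all genes). Of 88 alternative values of single called genes, 76 kept direction and call, 9 kept direction without meeting the rule, 1 had no difference left and 2 changed direction. Part of the 76 was fixed in advance, since a factor of 1.5 cannot undo a call made at a factor of 2. Islands of at least 1 kb left all these genes' values unchanged. KCNQ1OT1, not called by the main rule, is not among the 88. No paired analysis was possible because each mark and genotype had 1 library. With no height or depth in the islands, weak and strong enrichment count alike.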

Other observations

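Genes for proteins that set or read imprints were listed too, 15 in all, and in these H3R8me2a differed more than in the members. It was called gained at 8 of the 15, where 19.2% of all genes were, and lost at 0, where 7.6% were. The median KO minus WT difference was 7.6 kb. DNMT3B, a de novo DNA methyltransferase, had 57.8 kb in KO against 23.8 kb in WT, and DNMT3L, its cofactor, had 30.1 kb in KO against 4.8 kb in WT. CBX5, which codes for the H3K9me3 reader HP1 alpha, had 34.2 kb in KO against 13.4 kb in WT. DNMT1, which copies DNA methylation after replication, had 19 kb in KO against 8.4 kb in WT.

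H3K9me3 was called gained at 7 of these 15 genes, a share close to the 40.8% of all genes. The median KO minus WT difference was 0 kb. CBX5, DNMT1, DNMT3B, UHRF1, CTCF, EHMT2, YY1 and EED had 0 kb in both genotypes. ZNF445 had 71.8 kb in KO against 19.6 kb in WT, ZFP57 had 7 kb in KO against 0 kb in WT, TRIM28 had 6.6 kb in KO against 0 kb in WT and SETDB1 had 14.1 kb in KO against 5 kb in WT. H3K27me3 was called gained at 2 of the 15 (9.69% of all genes) and lost at 2 (4.33%). ZFP57 was 1 of the 2 lost, with 0.93 kb of H3K27me3 in KO against 12.5 kb in WT. H3K4me3 was called gained at 1 of the 15 (4.37% of all genes) and lost at 0 (2.09%). The gene gained was DNMT3L, with 20 kb in KO against 6.4 kb in WT. Genes of this list were named after their values were seen.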
